A study of Mus musculus with 4 samples.

Results

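The V genes of the T cell receptor (TCR) alpha and beta chains were counted in every contig of the 2 deposited receptor files, one for mice given Tc9 cells and one for mice given Tc1 cells. The contigs carried 109 V gene names, 87 of TRAV (alpha) and 22 of TRBV (beta), against 32285 features in the matching RNA matrices. Tc9 held 107 of these names and Tc1 held 108. Usage is the share of distinct clonotypes that carry a V gene, a clonotype being one V gene, nucleotide CDR3 and J gene. Usage per barcode, in which every cell is counted, is given where it differs from this. Cells were placed by their RNA in a CD4 gate (at least 1 unique molecular identifier, UMI, of Cd4 and none of Cd8a or Cd8b1) or a CD8 gate (at least 2 UMIs of Cd8a and Cd8b1 together and none of Cd4). Barcodes carrying a TRB chain found in both files were left out of all usage values.

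CD4 T cells were sorted from tumours of wild-type B6 mice of the Thy1.2 allele on day 30 after tumour inoculation. The mice bore chimeric tumours and had been given Thy1.1 Pmel-1 cells, either of the Tc9 or of the Tc1 type, with an adjuvant. The Pmel-1 transgene gives CD8 T cells a receptor for a melanocyte antigen, Tc9 cells are CD8 T cells that make interleukin-9, and Tc1 cells are CD8 T cells that make interferon-gamma. Tumours of 3 mice were pooled per group, each pool gave 1 RNA and 1 receptor library, and the mouse of a cell is not recorded. With 1 pool per group no test between groups was possible, and the 95% intervals cover counting error only. They are exact Clopper-Pearson for shares and exact conditional for ratios. For differences, the Clopper-Pearson limits of both shares were combined by Newcombe's formula. V genes are called higher or lower from 1.5-fold on.

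Each alpha or beta chain is made by joining one V gene to a J gene, with a D gene between them in the beta chain. The V gene encodes CDR1 and CDR2, the loops that mostly lie over the helices of the MHC molecule, while CDR3 is formed at the joint and mostly meets the peptide. CD4 cells are selected in the thymus on MHC class II and CD8 cells on MHC class I, so V gene usage is read in naive cells as a trace of rearrangement and selection. In responding cells it also reflects which clones have divided.

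The libraries differed in ways that bear on these values. Tc9 had 6639 contigs on 4214 barcodes and Tc1 had 8344 on 4597. Only a TRB chain was found on 45.3% of the receptor barcodes in Tc9 and on 23.3% in Tc1. Although CD4 cells were sorted, 1829 barcodes with a receptor in Tc1 lay in the CD8 gate, against 1196 in the CD4 gate. In Tc9 there were 18 in the CD8 gate and 2485 in the CD4 gate. These counts leave out barcodes with a TRB found in both files. With those barcodes, Tc9 had 192 in the CD8 gate and 2517 in the CD4 gate, and Tc1 had 1877 and 1197. A Cd3d, Cd3e or Cd3g UMI was found in at least 99.3% of the receptor barcodes of every set with cells. At least 3 UMIs of macrophage or red cell genes (Lyz2, C1qa, C1qb, C1qc, Hbb-bs and Hba-a1) were found in 0.322% of the CD4 gate in Tc9 and in 41.3% in Tc1, and in 32.5% of the CD8 gate in Tc1. A UMI of the melanocyte genes Pmel, Dct, Mlana or Tyrp1 was found in 1.33% of the CD4 gate in Tc9 and in 28.1% in Tc1, and in 28.3% of the CD8 gate in Tc1. The libraries shared 33 receptor barcodes, on which 0 chains were identical.

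Of 3243 TRB clonotypes, 2 occurred in both files. The first used TRBV14 and TRBJ1-6 and was carried by 487 barcodes in Tc9 and 59 in Tc1. The second, with the joined name TRBV12-2+TRBV13-2 and TRBJ2-4, was carried by 1 barcode in each. The Pmel-1 beta chain is known by its TRBV14 gene, but its sequence was not among the sources used here, so the identity of the shared chain was not tested. The alpha chain found with it used TRAV7N-5 and TRAJ40, on 155 barcodes in Tc9 and 42 in Tc1, each of which also carried the shared TRB. The CDR3 sequences are shown here because they define what was left out of the usage values. They run from 5′ to 3′, with capitals for the middle bases that are neither in the start shared by most chains of that V gene nor in the end shared by most chains of that J gene.
TRBV14-TRBJ1-6: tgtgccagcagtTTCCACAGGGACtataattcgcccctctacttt
TRAV7N-5-TRAJ40: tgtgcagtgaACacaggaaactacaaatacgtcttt
TRBV12-2+TRBV13-2-TRBJ2-4: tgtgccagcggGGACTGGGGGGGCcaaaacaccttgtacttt

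Barcodes with a shared TRB numbered 488 in Tc9 and 60 in Tc1. In Tc9, 174 of them lay in the CD8 gate, 32 in the CD4 gate and 154 had no UMI of Cd4, Cd8a or Cd8b1. In Tc1, 48 lay in the CD8 gate, 1 in the CD4 gate and 5 had no such UMI. Leaving them out therefore removed most of the CD8 gate in Tc9, which went to 18 receptor barcodes with 9 TRB clonotypes, against 192 barcodes before. The other 41 TRBV14 clonotypes of both libraries were not near copies of the shared chain. Only 6 of them had a CDR3 of the same length, and the closest differed from it at 19 bases.

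In CD4 cells TRBV3, TRBV31 and the joined TRBV12-2+TRBV13-2 were among the most used V beta names in both groups. The joined name had 83 of 760 clonotypes (10.9%) in Tc9 and 50 of 660 (7.58%) in Tc1, and TRBV3 had 82 (10.8%) in Tc9 and 65 (9.85%) in Tc1. TRBV31 had 62 clonotypes (8.16%) in Tc9 and 54 (8.18%) in Tc1, and TRBV5 had 56 (7.37%) in Tc9 and 48 (7.27%) in Tc1. Of the 20 TRBV names with at least 10 clonotypes in both libraries together, 2 (10%) passed 1.5-fold, 1 in each direction. This count was 7 with only barcodes of 1 TRA and 1 TRB, 6 with stricter gates, 5 without barcodes with macrophage or red cell RNA, 4 without naive-like cells and 10 per barcode. TRBV14 had 18 clonotypes (2.37%) in Tc9 and 4 (0.606%) in Tc1, a ratio of 3.91 (1.29 to 15.9), and these counts do not hold the shared chain. TRBV16 had 28 (3.68%) in Tc9 and 38 (5.76%) in Tc1, a ratio of 0.640 whose interval (0.378 to 1.07) includes 1. TRBV16 was back inside 1.5-fold when the barcodes with macrophage or red cell RNA were left out. TRBV19, with 44 (5.79%) in Tc9 and 57 (8.64%) in Tc1, where it came second to TRBV3, was below 1.5-fold, as were the other 17. Across the 20 names the usage of the libraries had a Pearson r of 0.88, given as a description since the shares of one library add up to 100%.

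The remaining TRBV genes with at least 1% of CD4 clonotypes in a library had the following ranges. TRBV1, TRBV2, TRBV13-1 and TRBV13-3 had between 5.39% and 6.71% in Tc9 and between 5.15% and 6.97% in Tc1. TRBV10, TRBV15, TRBV20 and TRBV26 had between 3.16% and 5.00% in Tc9 and between 3.64% and 5.61% in Tc1. TRBV12-1, TRBV12-2, TRBV13-2, TRBV17 and TRBV29 had between 1.45% and 2.63% in Tc9 and between 1.36% and 2.12% in Tc1. TRBV23 and TRBV30 had 5 clonotypes or fewer in each library and were not compared.

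V alpha genes were summed to 19 families for comparison, because 45 of the 87 TRAV names are D or N copies from the duplicated part of the locus and 6 have the same V sequence as another name. TRAV7 had 103 of 596 CD4 clonotypes (17.3%) in Tc9 and 92 of 587 (15.7%) in Tc1. TRAV6 had 99 (16.6%) in Tc9 and 92 (15.7%) in Tc1, and TRAV14 had 74 (12.4%) in Tc9 and 70 (11.9%) in Tc1. TRAV13 had 10.7% in Tc9 and 8.35% in Tc1, TRAV12 had 8.56% in Tc9 and 7.84% in Tc1, TRAV9 had 7.21% in Tc9 and 8.01% in Tc1, and TRAV4 had 6.71% in Tc9 and 9.88% in Tc1. Of the 14 families at the minimum, 1 (7.14%) passed 1.5-fold. It was TRAV10, with 10 clonotypes (1.68%) in Tc9 and 20 (3.41%) in Tc1, a ratio of 0.492 and a difference of -1.73 percentage points whose interval (-3.73 to 0.180) includes 0. Without naive-like cells its ratio was within 1.5-fold. At the level of single TRAV names, 14 of 44 (31.8%) passed 1.5-fold, and these rest on 3 to 26 clonotypes per library.

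Single genes of the leading TRAV families had up to 4.77% of clonotypes in the CD4 gate. TRAV6D-6 had 4.36% in Tc9 and 3.75% in Tc1, TRAV7D-2 had 4.03% in Tc9 and 4.77% in Tc1, and TRAV13-1 had 4.53% in Tc9 and 3.24% in Tc1. TRAV14N-1 had 2.68% in Tc9 and 3.58% in Tc1, TRAV4N-4 had 3.02% in Tc9 and 3.75% in Tc1, and TRAV12D-3 had 2.35% in Tc9 and 2.56% in Tc1. TRAV3N-3 passed 1.5-fold, with 20 clonotypes (3.36%) in Tc9 and 12 (2.04%) in Tc1. Its ratio of 1.64 has an interval (0.764 to 3.68) that includes 1.

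**Figure D1:**
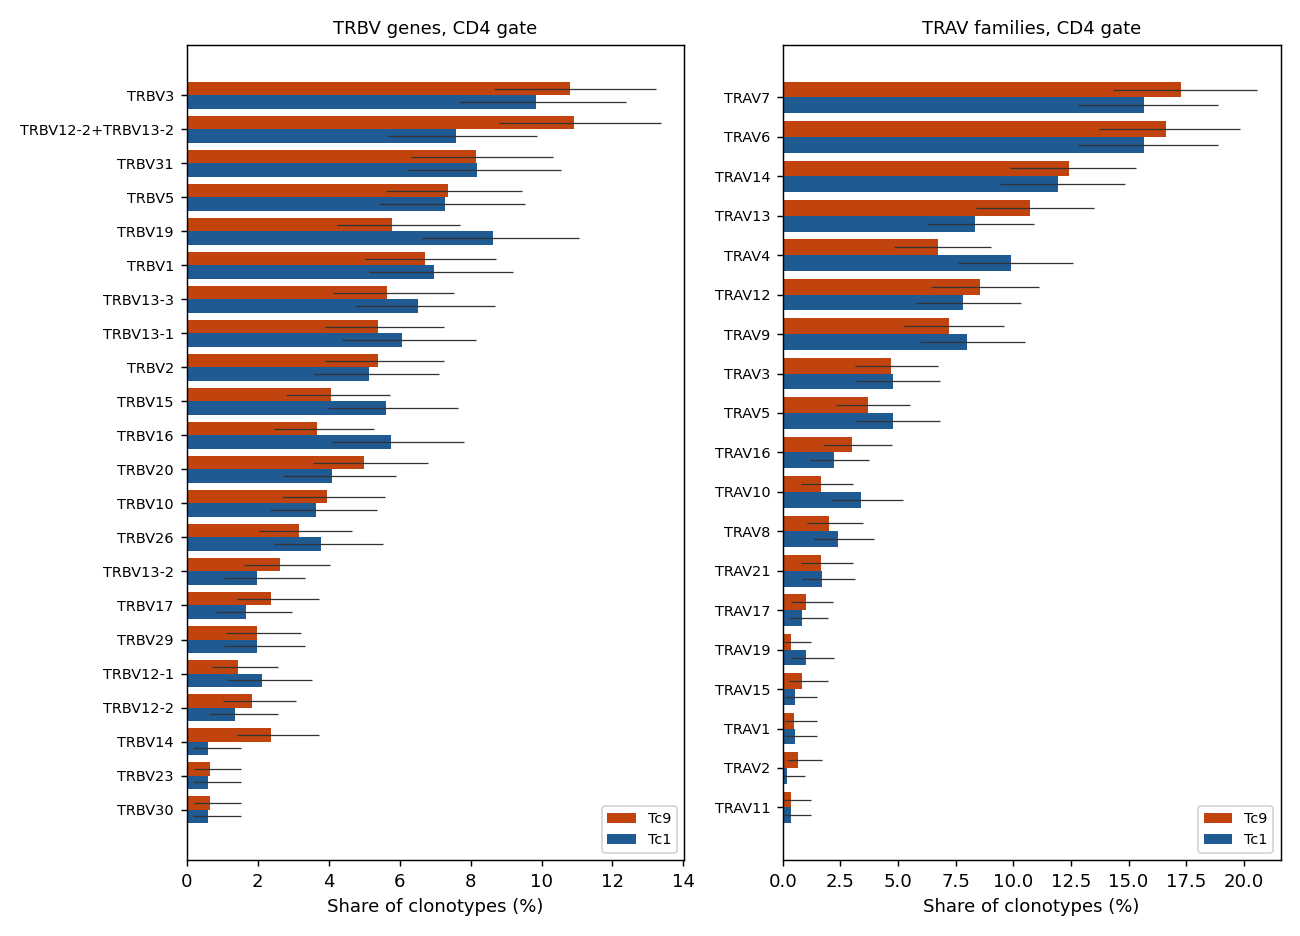
Share of distinct clonotypes (%, horizontal axis from 0) for each TRBV gene (left) and TRAV family (right) in the CD4 gate, Tc9 above Tc1 in each pair, with exact 95% intervals of counting error. Most pairs overlap, while TRBV14 stands at 2.37% in Tc9 and 0.606% in Tc1.

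In CD8 cells of Tc1, TRBV12-1, TRBV29 and TRBV12-2 made up more of the clonotypes than in CD4 cells, and TRBV31, TRBV1 and TRBV2 made up less. The mean absolute difference over 20 TRBV names was 2.23 percentage points between these gates, beside 0.951 between the CD4 gates of Tc9 and Tc1. The gate comparison was made within Tc1, as Tc9 had 9 TRB and 8 TRA clonotypes left in the CD8 gate, so it compares cells of one library. Of 20 TRBV names, 9 (45%) passed 1.5-fold, 4 higher and 5 lower in CD8 cells. TRBV12-1 had 53 of 690 clonotypes (7.68%) in CD8 cells and 14 of 660 (2.12%) in CD4 cells, a ratio of 3.62 (1.98 to 7.07). TRBV29 had 41 (5.94%) in CD8 cells and 13 (1.97%) in CD4 cells, a ratio of 3.02 (1.58 to 6.14). TRBV12-2 had 30 (4.35%) in CD8 cells and 9 (1.36%) in CD4 cells, a ratio of 3.19 (1.48 to 7.63). The fourth, TRBV14, had 11 (1.59%) in CD8 cells and 4 (0.606%) in CD4 cells, with a ratio interval (0.779 to 11.3) that includes 1.

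The V beta genes that were lower in CD8 cells were led by TRBV31. It had 18 clonotypes (2.61%) in CD8 cells and 54 (8.18%) in CD4 cells, a ratio of 0.319 (0.176 to 0.552). TRBV1 had 23 (3.33%) in CD8 cells and 46 (6.97%) in CD4 cells, and TRBV2 had 14 (2.03%) in CD8 cells and 34 (5.15%) in CD4 cells, and both ratio intervals lay below 1. TRBV15, at 3.48% in CD8 cells and 5.61% in CD4 cells, and TRBV20, at 2.46% in CD8 cells and 4.09% in CD4 cells, had intervals that include 1. TRBV3, at 7.10% in CD8 cells and 9.85% in CD4 cells, and TRBV13-1, at 8.84% in CD8 cells and 6.06% in CD4 cells, stayed within 1.5-fold. Across the 20 names the 2 gates had a Pearson r of 0.43.

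On the GRCm38.p6 build as annotated by RefSeq, TRBV12-1 lies at chr6:41113567-41114067, TRBV12-2 at chr6:41118864-41119364 and TRBV29 at chr6:41271403-41271881. TRBV1 (chr6:40891296-40891885) and TRBV2 (chr6:41047556-41047995) lie at the start of the locus, and TRBV31 (chr6:41557693-41558371) is the last V gene, known to lie beyond the J and C genes in reverse orientation. TRBV13-1, which stayed within 1.5-fold, stands between TRBV12-1 and TRBV12-2 at chr6:41116036-41116468. The CDR1 and CDR2 bases, 5′ to 3′ on the coding strand as read from the contigs, are shown for the 3 genes with the highest and the 3 with the lowest ratios whose intervals exclude 1, since these loops are what the V gene alone brings to the receptor. Each sequence was the same in every contig of its gene, except for the TRBV31 CDR2, which was found in 673 of 674.
TRBV12-1 CDR1: tctggacatagcaat
TRBV12-1 CDR2: cattatgaaaaggtggag
TRBV12-2 CDR1: tctggacatctctct
TRBV12-2 CDR2: cattatgataaaatggag
TRBV29 CDR1: atgagccatgaaaca
TRBV29 CDR2: tcatacgatgttgatagt
TRBV31 CDR1: gggaaatcaagccctaac
TRBV31 CDR2: tctattactgttggc
TRBV1 CDR1: aattcccagtatccctgg
TRBV1 CDR2: ctgcggagtcctggggac
TRBV2 CDR1: ctaggccacaatgct
TRBV2 CDR2: tacagctatcaaaaactt
TRBV12-1 and TRBV12-2 begin both loops with the same bases, and TRBV31 is the one whose CDR1 is longer than its CDR2.

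The same CD8 and CD4 comparison was made in naive-like cells, which had no Foxp3 UMI and a UMI of at least 2 of 3 naive T cell genes, Ccr7 and Lef1 among them. Here 10 of 20 TRBV names (50%) passed 1.5-fold, among them all 9 named above in the same direction. TRBV12-1 had 41 of 473 clonotypes (8.67%) in naive-like CD8 cells and 1 of 259 (0.386%) in naive-like CD4 cells. TRBV12-2 had 19 (4.02%) in naive-like CD8 cells and 0 in naive-like CD4 cells, and was at least 3.47-fold higher against a floor of 3 clonotypes. TRBV31 had 11 (2.33%) in naive-like CD8 cells and 22 (8.49%) in naive-like CD4 cells. In the cells that were not naive-like, 10 of 19 names (52.6%) passed 1.5-fold. Of the 9 names, 8 reached the minimum there, all 8 differed in the same direction and 7 passed 1.5-fold, TRBV20 being the exception. TRBV12-1 was at 5.74% in these CD8 cells and 3.08% in these CD4 cells, with a ratio interval that includes 1. TRBV29 was at 7.38% in CD8 cells and 2.13% in CD4 cells. Among naive-like barcodes, B cell gene UMIs were found in 9.98% of CD8 and 1.52% of CD4 cells, and at least 2 TRB chains on 7.69% of CD8 and 4.55% of CD4 cells, and their part in these values was not tested. These sets come from the same library, so they are not replicates of one another.

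**Figure D2:**
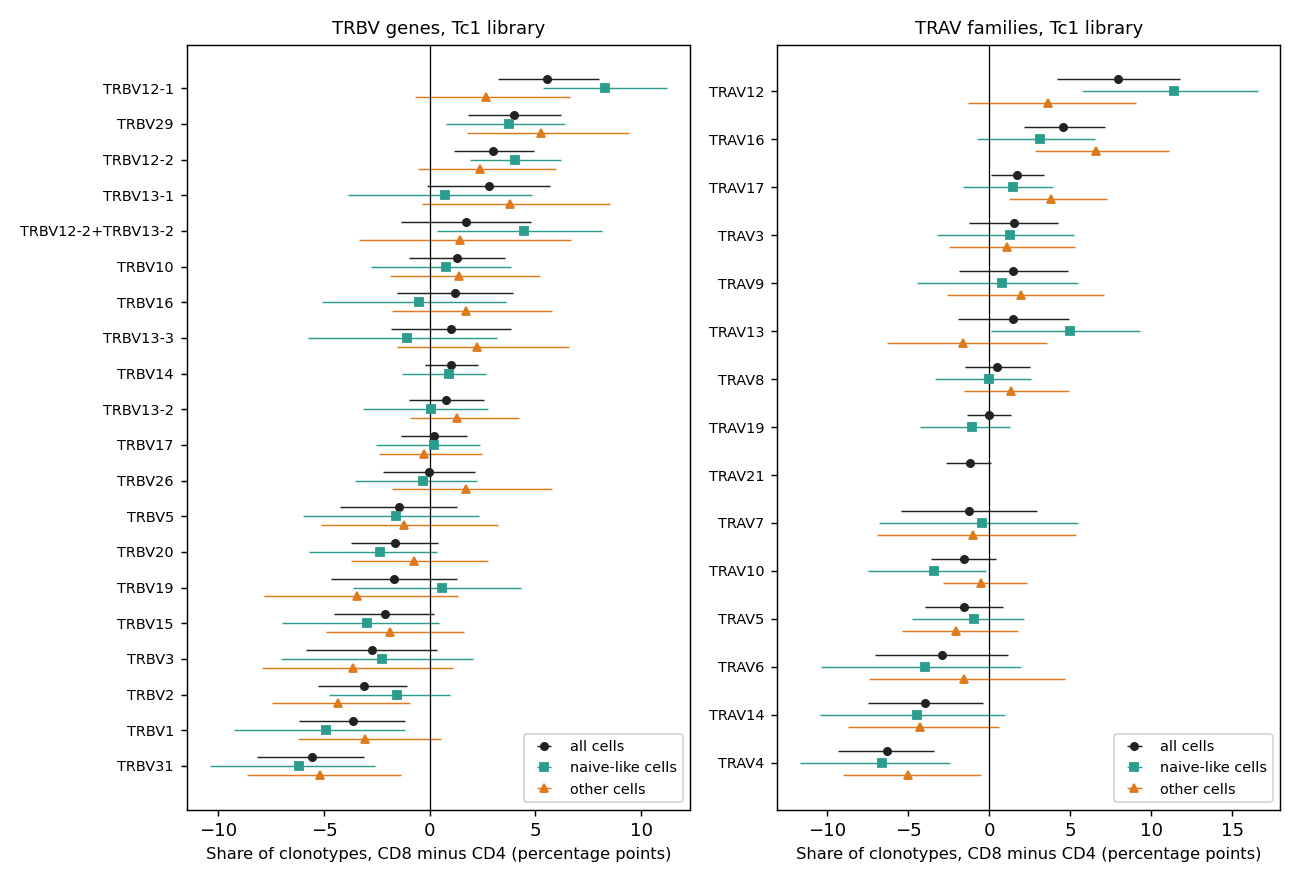
Difference in the share of clonotypes between the CD8 and the CD4 gate of Tc1 (CD8 minus CD4, percentage points) for TRBV genes (left) and TRAV families (right), in all cells, naive-like cells and other cells, with 95% intervals of counting error. The points of TRBV12-1, TRBV29 and TRBV12-2 lie right of 0 in all 3 sets and those of TRBV31, TRBV1 and TRBV2 left of it. Not all of these intervals exclude 0, as that of TRBV12-1 in other cells includes it.

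V alpha families differed between the gates of Tc1 too, in 6 of 15 (40%). TRAV12 had 93 of 589 clonotypes (15.8%) in CD8 cells and 46 of 587 (7.84%) in CD4 cells, a ratio of 2.01 (1.40 to 2.93). TRAV16 had 40 (6.79%) in CD8 cells and 13 (2.21%) in CD4 cells, a ratio of 3.07 (1.61 to 6.25), and TRAV17 had 15 (2.55%) in CD8 cells and 5 (0.852%) in CD4 cells. TRAV4 was lower, with 21 (3.57%) in CD8 cells and 58 (9.88%) in CD4 cells, a ratio of 0.361 (0.208 to 0.604). TRAV10, at 1.87% in CD8 cells and 3.41% in CD4 cells, and TRAV21, at 0.509% in CD8 cells and 1.70% in CD4 cells, were lower with intervals that include 1. Among naive-like cells 7 of 14 families (50%) passed 1.5-fold, with TRAV12 at 18.1% in CD8 cells and 6.67% in CD4 cells. Among other cells 6 of 13 (46.2%) did, but TRAV12, at 11.6% in CD8 cells and 7.96% in CD4 cells, did not reach 1.5-fold there.

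Single TRAV genes were compared between the gates as well, and 28 of 46 names (60.9%) passed 1.5-fold, 14 in each direction. Between the CD4 gates of Tc9 and Tc1 it was 14 of 44 (31.8%). Many of the names called between the gates rest on few clonotypes and have ratio intervals that include 1. Within TRAV9, TRAV9N-3 (chr14:53231668-53232102) had 21 clonotypes (3.57%) in CD8 cells and 5 (0.852%) in CD4 cells, while TRAV9-1 had 5 (0.849%) in CD8 cells and 14 (2.39%) in CD4 cells. The ratio interval of TRAV9N-3 (1.54 to 14.2) excludes 1, but that of TRAV9-1 (0.100 to 1.05) includes it. The family as a whole had 9.51% in CD8 cells and 8.01% in CD4 cells. Within TRAV12, TRAV12-2 (chr14:53616397-53616914) had 35 (5.94%) in CD8 cells and 8 (1.36%) in CD4 cells. TRAV12-1 had 11 (1.87%) in CD8 cells and 1 (0.170%) in CD4 cells. The other genes of this family differed less. TRAV12N-2 had 17 in CD8 cells and 10 in CD4 cells, with a ratio interval (0.733 to 4.14) that includes 1. TRAV12D-3, with 21 in CD8 cells and 15 in CD4 cells, was within 1.5-fold. TRAV12-3 went the other way, with 9 in CD8 cells and 11 in CD4 cells. TRAV16 itself (chr14:53743174-53743705) had 17 (2.89%) in CD8 cells and 1 (0.170%) in CD4 cells. On the other side, TRAV4N-4 (chr14:53302059-53302559) had 4 (0.679%) in CD8 cells and 22 (3.75%) in CD4 cells, and TRAV4-4-DV10 had 6 (1.02%) in CD8 cells and 21 (3.58%) in CD4 cells. The ratio intervals of TRAV12-2, TRAV12-1, TRAV16, TRAV4N-4 and TRAV4-4-DV10 exclude 1. All single genes named here were chosen after their values were seen, apart from TRAV12D-3, TRAV4N-4 and TRAV9-1. The names of D and N copies are uncertain.

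**Figure D3:**
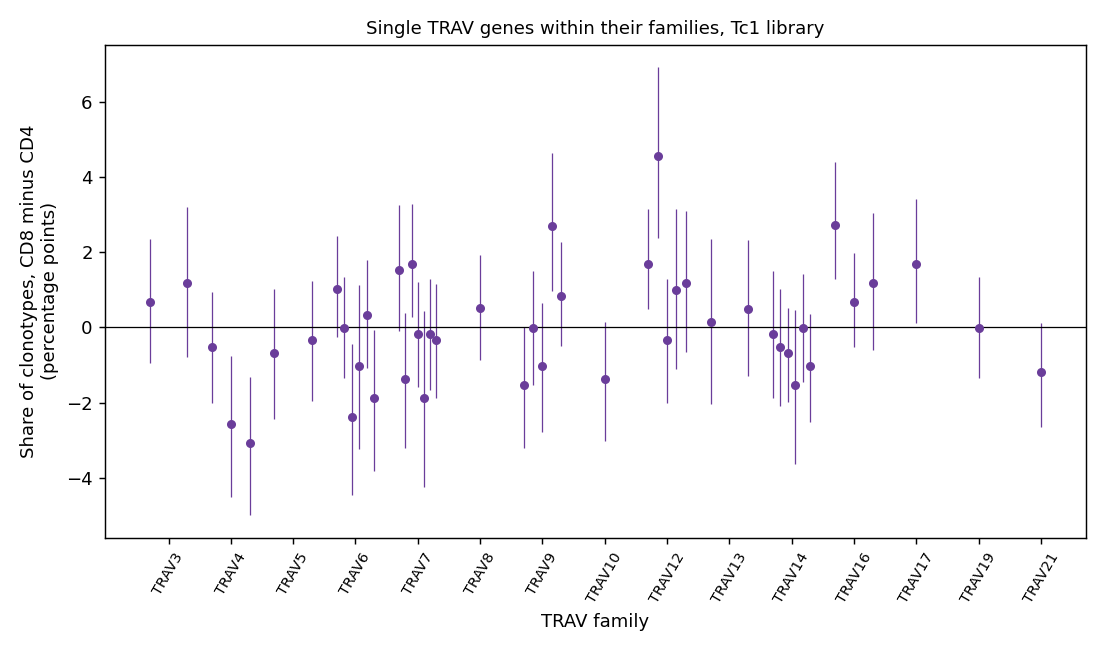
Difference in the share of TRA clonotypes between the CD8 and the CD4 gate of Tc1 (CD8 minus CD4, percentage points) for the 46 single TRAV genes at the minimum, set out by family, with 95% intervals of counting error. The TRAV9 family holds TRAV9N-3 above 0 and TRAV9-1 below it, the latter with an interval (-3.22 to 0.0171) that includes 0. The TRAV4 genes all have differences below 0.

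For Tc9 the CD8 gate could add little. With 9 TRB and 8 TRA clonotypes there, 1 clonotype was already 11.1% or 12.5% of the gate. A count of 0 was set to the floor of 3 clonotypes. No V gene or family could therefore be called lower in the CD8 cells of Tc9. The counts that follow were thus largely fixed in advance and cannot show whether the libraries agree. Needing 1.5-fold in the same direction in both libraries left 0 of 20 TRBV names (0%) and 1 of 13 TRAV families (7.69%), TRAV12, which in Tc9 had 2 of 8 CD8 clonotypes against 51 of 596 CD4 clonotypes.

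Regulatory T cells are marked by the transcription factor Foxp3, and few V genes differed between them and other CD4 cells in the same direction in both libraries. The CD4 gate held 340 Foxp3-positive receptor barcodes in Tc9 and 177 in Tc1. Il2ra, a receptor gene of regulatory T cells, was detected in 80.0% of them in Tc9 and 61.6% in Tc1, against 16.8% of Foxp3-negative cells in Tc9 and 9.62% in Tc1. A UMI of the B cell genes Cd79a, Cd79b or Ms4a1 was found in 8.24% of Foxp3-positive and 1.17% of Foxp3-negative barcodes in Tc9, and in 15.3% of Foxp3-positive and 1.96% of Foxp3-negative barcodes in Tc1. At least 2 TRB chains were found on 9.71% of Foxp3-positive and 5.50% of Foxp3-negative barcodes in Tc9, and on 5.08% of Foxp3-positive and 3.73% of Foxp3-negative barcodes in Tc1. The part of these barcodes in the Foxp3 comparison was not tested, apart from the restriction to 1 TRA and 1 TRB per barcode. Between Foxp3-positive and Foxp3-negative CD4 cells, 2 of 20 TRBV names (10%) passed 1.5-fold in Tc9 and 5 of 18 (27.8%) in Tc1. In both libraries and the same direction it was 1 of 18 (5.56%). This was TRBV12-1, with 7 of 293 clonotypes (2.39%) in Foxp3-positive and 6 of 519 (1.16%) in Foxp3-negative cells of Tc9, and 7 of 139 (5.04%) in Foxp3-positive and 7 of 539 (1.30%) in Foxp3-negative cells of Tc1. The interval of the Tc9 ratio (0.595 to 7.44) includes 1, that of Tc1 (1.16 to 13.0) does not, and without the barcodes with macrophage or red cell RNA no TRBV name passed in both libraries. TRBV12-1 was also not called in both libraries when only barcodes with 1 TRA and 1 TRB were used. At least 3 UMIs of these macrophage or red cell genes were found in 47.5% of the Foxp3-positive and 40.2% of the Foxp3-negative barcodes of Tc1.

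TRBV31 was lower in the Foxp3-positive cells of Tc1 and about equal in those of Tc9, a difference between the libraries that was not tested. It had 3 clonotypes (2.16%) in Foxp3-positive and 51 (9.46%) in Foxp3-negative cells of Tc1, but 25 (8.53%) in Foxp3-positive and 43 (8.29%) in Foxp3-negative cells of Tc9. TRBV15 had 13 (9.35%) in Foxp3-positive and 24 (4.45%) in Foxp3-negative cells of Tc1. Among TRAV families 5 of 13 (38.5%) passed in Tc9 and 4 of 13 (30.8%) in Tc1, with 1 of 13 (7.69%) in both. It was TRAV21, with 2 clonotypes in Foxp3-positive and 8 in Foxp3-negative cells of Tc9 and 1 in Foxp3-positive and 9 in Foxp3-negative cells of Tc1. It was not called without naive-like cells or with contigs of at least 3 UMIs. Other families passed in 1 library alone. TRAV12 had 12.7% in Foxp3-positive and 6.88% in Foxp3-negative cells of Tc9, but 7.69% in Foxp3-positive and 7.56% in Foxp3-negative cells of Tc1. TRAV6 had 12.3% in Foxp3-positive and 19.4% in Foxp3-negative cells of Tc9, and the opposite order in Tc1, with 16.8% in Foxp3-positive and 15.6% in Foxp3-negative cells. TRAV5 had 8.39% in Foxp3-positive and 3.67% in Foxp3-negative cells of Tc1, but 3.64% in Foxp3-positive and 3.93% in Foxp3-negative cells of Tc9.

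Naive-like CD4 cells were compared with the other CD4 cells in Tc1, where they had 259 and 422 TRB clonotypes. Igfbp4, a naive cell gene not used to choose them, was detected in 59.5% of the naive-like and 7.62% of the other receptor barcodes. Of the naive-like clonotypes 255 were seen in 1 barcode, against 338 of the 422 in the other cells. Of 18 TRBV names, 7 (38.9%) passed 1.5-fold. TRBV16 had 21 clonotypes (8.11%) in naive-like and 17 (4.03%) in other cells, TRBV13-3 had 23 (8.88%) in naive-like and 20 (4.74%) in other cells, and TRBV13-2 had 8 (3.09%) in naive-like and 5 (1.18%) in other cells. TRBV12-2+TRBV13-2 had 12 (4.63%) in naive-like and 39 (9.24%) in other cells, TRBV12-1 had 1 (0.386%) in naive-like and 13 (3.08%) in other cells, TRBV19 had 6.18% in naive-like and 10.4% in other cells, and TRBV2 had 3.47% in naive-like and 6.40% in other cells. With TRBV13-2 and the joined name pooled, naive-like cells had 7.72% and other cells 10.4%, the opposite of TRBV13-2 alone. With all 3 of the naive genes needed, TRBV13-3 turned to a difference of -0.868 percentage points, naive-like minus other. With gates set after thinning each barcode to 2000 UMIs, the joined name turned to 3.02 points.

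Tc9 had 86 naive-like TRB clonotypes, and 5 of the 7 names differed there in the same direction. TRBV13-2 and TRBV13-3 did not. Among TRAV families in Tc1, 3 of 13 (23.1%) passed. TRAV10 had 11 clonotypes (5.24%) in naive-like and 9 (2.24%) in other cells, TRAV13 had 11 (5.24%) in naive-like and 41 (10.2%) in other cells, and TRAV21 had 5 (2.38%) in naive-like and 6 (1.49%) in other cells. The direction of TRAV13 turned with stricter gates (0.104 points) and after thinning (2.52 points). At least 3 UMIs of macrophage or red cell genes were found in 50.4% of the naive-like and 38.7% of the other receptor barcodes in Tc1, and without those barcodes 8 TRAV families passed 1.5-fold in place of 3.

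Counted per barcode, V gene usage followed a few large clones, above all in the CD8 cells of Tc1. There TRBV12-2+TRBV13-2 had 9.28% of clonotypes and 27.7% of barcodes, since 1 clonotype of 354 cells made up 69.4% of its 510 barcodes. TRBV29 had 5.94% of clonotypes and 13.2% of barcodes, with 182 of 244 in 1 clonotype. TRBV17 had 1.88% of clonotypes and 5.97% of barcodes, with 97 of 110 in 1 clonotype. The V alpha genes followed their partners, as TRAV17 had 2.55% of clonotypes and 28.1% of barcodes, and TRAV16 had 6.79% of clonotypes and 17.2% of barcodes. In contrast, TRBV12-1, at 7.68% of CD8 clonotypes, had 3.52% of barcodes, and its largest clonotype had 5 cells. TRBV12-2 had 1.68% of CD8 barcodes and 2.03% of CD4 barcodes in Tc1, so its direction turned when cells were counted. The barcode shares have no interval that allows for this, because cells of a clone are not independent.

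The largest CD4 clonotypes held fewer cells. In Tc9, TRBV31 had 8.16% of clonotypes and 12.1% of barcodes, with a clonotype of 99 cells. The joined name had 10.9% of clonotypes and 13.9% of barcodes with a clonotype of 126 cells, and TRBV3 had 10.8% of clonotypes and 12.5% of barcodes with one of 102 cells. In Tc1, TRBV3 had 9.85% of clonotypes and 19.2% of barcodes, and held clonotypes of 63 and 42 cells. In Tc9, 163 of 760 CD4 clonotypes had 3 cells or more, against 58 of 660 in Tc1. These counts come from 2527 TRB chains in Tc9 and 1133 in Tc1. The largest TRB clonotypes of the gates other than the small CD8 gate of Tc9 are shown, with the same use of capitals, to let the V and J ends be told from the joint.
Tc9 CD4, TRBV12-2+TRBV13-2-TRBJ2-1, 126 cells: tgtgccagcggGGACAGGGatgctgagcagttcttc
Tc9 CD4, TRBV3-TRBJ1-2, 102 cells: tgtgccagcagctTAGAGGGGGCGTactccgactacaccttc
Tc9 CD4, TRBV31-TRBJ2-4, 99 cells: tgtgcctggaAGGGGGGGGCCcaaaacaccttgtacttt
Tc1 CD8, TRBV12-2+TRBV13-2-TRBJ2-3, 354 cells: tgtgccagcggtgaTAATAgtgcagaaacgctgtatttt
Tc1 CD8, TRBV29-TRBJ2-5, 182 cells: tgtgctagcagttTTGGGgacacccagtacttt
Tc1 CD8, TRBV17-TRBJ2-5, 97 cells: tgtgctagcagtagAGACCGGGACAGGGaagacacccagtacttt
Tc1 CD4, TRBV3-TRBJ1-1, 63 cells: tgtgccagcagctTAAAagaagtcttcttt
Tc1 CD4, TRBV3-TRBJ2-1, 42 cells: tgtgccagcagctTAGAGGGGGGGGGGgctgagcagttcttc
Tc1 CD4, TRBV12-2+TRBV13-2-TRBJ2-2, 35 cells: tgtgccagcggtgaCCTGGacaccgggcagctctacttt
The 3 Tc1 CD8 clonotypes were most often found with TRAV17-TRAJ57 (310 barcodes), TRAV16-TRAJ56 (114) and TRAV16D-DV11-TRAJ21 (78), in the order shown. Both TRBV3 clonotypes of Tc1 differ in their J gene and middle bases, and their most frequent alpha chains used TRAV6-7-DV9 (45 barcodes) and TRAV5N-4 (21 barcodes). Of the 3 Tc9 CD4 clonotypes each had 1 Foxp3-positive barcode.

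**Figure D4:**
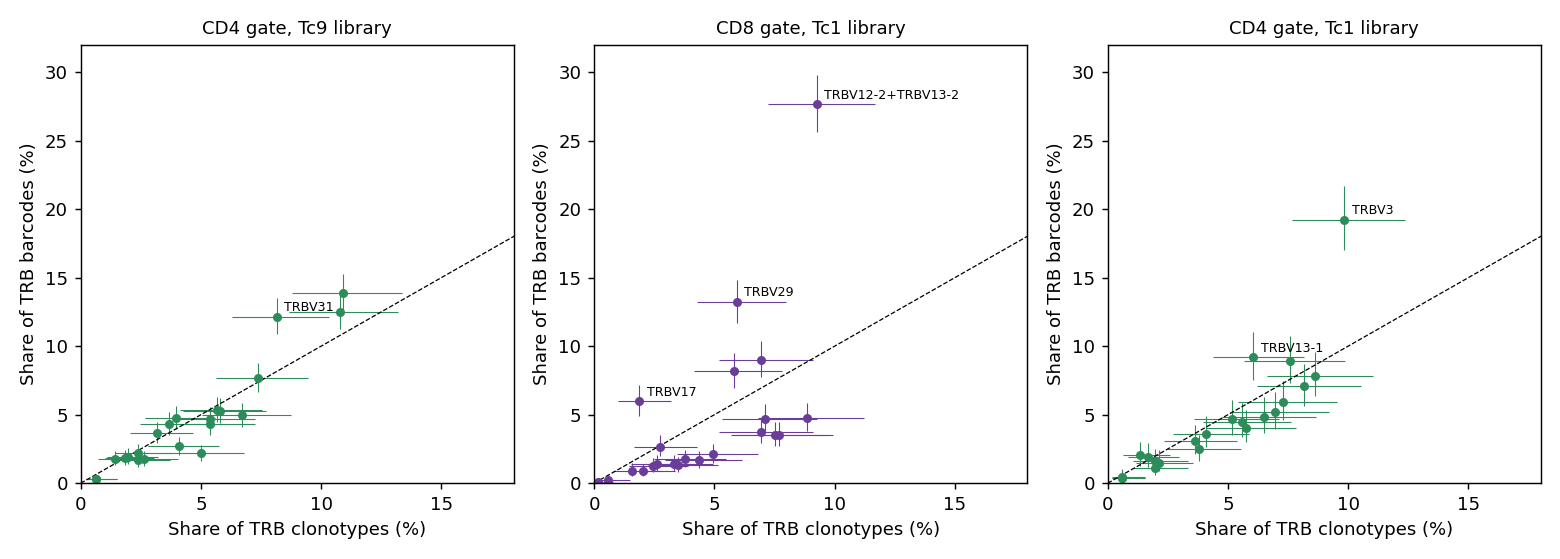
Share of TRB barcodes (%) against share of TRB clonotypes (%) for each TRBV gene in the CD4 gate of Tc9, the CD8 gate of Tc1 and the CD4 gate of Tc1, with exact 95% intervals of counting error that treat cells as independent and a dashed line where both shares are equal. Genes at least 3 percentage points above the line are named, and the joined name in Tc1 CD8 cells stands highest at 27.7% of barcodes.

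The V gene of a contig could be checked against V gene RNA in the same barcode, which the usage counts did not use. Among barcodes with 1 TRB, the RNA of the same V gene was detected in 93.5% to 100% in Tc9 and in 81.7% to 100% in Tc1, for the TRBV genes other than TRBV10 and the joined name with at least 10 barcodes, with TRBV5 lowest in both. The same RNA was found in a median of 0.746% of barcodes with another V gene in Tc9 and 0.914% in Tc1, which is the background. It was highest for TRBV12-2, at 8.53% in Tc9 and 7.70% in Tc1. TRBV14 RNA was detected in 558 of 558 TRBV14 barcodes in Tc9 and 85 of 86 in Tc1, and TRBV29 RNA in 77 of 77 in Tc9 and 305 of 308 in Tc1. Barcodes with the shared TRB were kept in this check. Most of these TRBV14 barcodes therefore carried the shared chain, which was on 487 barcodes in Tc9 and 59 in Tc1. TRBV10 was the exception, with Trbv10 RNA in 0 of 132 barcodes in Tc9 and 0 of 98 in Tc1. Instead, Trbv4 RNA was detected in 98.5% of these barcodes in Tc9 and 91.8% in Tc1, and no position is given for TRBV10 here. Whether the receptor and RNA references name this gene differently was not tested. For alpha chains, RNA of the same family was found in 88.0% of barcodes with 1 TRA and some TRAV RNA in Tc9 and 90.0% in Tc1. Some TRAV RNA was found in 1454 of 2050 barcodes with 1 TRA in Tc9 and 2473 of 3205 in Tc1. The beta check used all barcodes with 1 TRB, and no background was measured for alpha chains, so the 2 checks are not alike.

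The joined name TRBV12-2+TRBV13-2 was resolved in part. Its contigs carried the CDR1 and CDR2 of TRBV13-2, shown here because they settle which V gene the chain uses outside its leader. The CDR1 was found in 1243 of 1244 joined-name contigs and the CDR2 in 1244 of 1244, and both in all 158 contigs named TRBV13-2.
TRBV13-2 CDR1: aataaccacaacaac
TRBV13-2 CDR2: tcatatggtgctggcagc
In the RNA matrix, however, Trbv12-2 UMIs were found in 95.7% of joined-name barcodes in Tc9 and 89.7% in Tc1, and Trbv13-2 UMIs in 65.0% in Tc9 and 73.8% in Tc1. The 2 genes lie next to each other, TRBV12-2 ending at position 41119364 and TRBV13-2 starting at 41121396 of chromosome 6. Pooled with TRBV13-2, the joined name had 103 of 760 CD4 clonotypes (13.6%) in Tc9 and 63 of 660 (9.55%) in Tc1, the highest share of any V beta gene in Tc9.

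V gene RNA was also read in cells without a receptor contig. In the CD8 gate of Tc9, 112 barcodes had no contig, 53 of them had RNA of 1 TRBV gene alone, and it was Trbv14 in 51 (96.2% of the 53). In the CD8 gate of Tc1, 586 barcodes had no contig and 139 had RNA of 1 TRBV gene alone, which was Trbv14 in 37 (26.6%) and Trbv29 in 24 (17.3%). Among barcodes whose contig named another V gene, Trbv14 RNA was found in 2.31% in Tc9 and 3.56% in Tc1, and Trbv29 RNA in 0.562% in Tc9 and 0.701% in Tc1. These shares are over all such barcodes and not over those with RNA of 1 gene, so they cannot be set directly against the 26.6%, and no usage is read from it. In the CD4 gates 728 barcodes in Tc9 and 269 in Tc1 had no contig and RNA of 1 TRBV gene alone, and it was Trbv3 in 61 (8.38%) in Tc9 and 112 (41.6%) in Tc1.

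J gene use and CDR3 length were also read by V gene, for genes with at least 10 clonotypes. The TRBJ2 cluster made up 61.6% of CD4 clonotypes in Tc9 (58.0% to 65.1%) and 67.1% in Tc1 (63.4% to 70.7%). Within Tc1 it made up 69.7% of CD8 clonotypes, against the 67.1% of CD4 clonotypes. TRBV10 stood highest in Tc9, with 27 of 30 clonotypes (90%) in Tc9, and had 45 of 57 (78.9%) in Tc1 over both gates, where TRBV14 stood higher with 13 of 15 (86.7%). TRBV2 was at 42.9% of 42 clonotypes in Tc9 and 62.5% of 48 in Tc1. The beta CDR3 averaged 13.8 ± 1.41 amino acids in Tc9 CD4 cells, against 13.8 ± 1.48 in Tc1 CD8 cells and 13.7 ± 1.34 in Tc1 CD4 cells (SD over clonotypes). It was shortest in TRBV20, at 13.1 in Tc9 and 12.9 in Tc1, and long in TRBV5, at 14.3 in Tc9 and 14.5 in Tc1.

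The V alpha genes nearest to the J alpha genes on chromosome 14 were found with the nearest J genes, as TRAV21-DV12 had a mean TRAJ order of 12.2 in Tc9 and 10.5 in Tc1. Genes were ordered by their RefSeq start, so that TRAV21-DV12 comes last and TRAJ order 1 is the J gene nearest to the V genes. This order takes each TRAV name as given, although the names of D and N copies, and so their places, are uncertain. Across TRAV genes with at least 10 clonotypes, the mean order of the joined TRAJ fell with the order of the TRAV gene, with a Pearson r of -0.66 over 25 genes in Tc9 and -0.81 over 46 genes in Tc1. The TRAV genes within the first 25% of the order had a mean TRAJ order of 32.7 in Tc9 and 36.5 in Tc1, over 3 and 4 genes, and those within the last 25% had 20.9 in Tc9 and 21.4 in Tc1, over 9 and 16 genes. Pairing by distance is known from the stepwise rearrangement of this locus in the mouse.

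**Figure D5:**
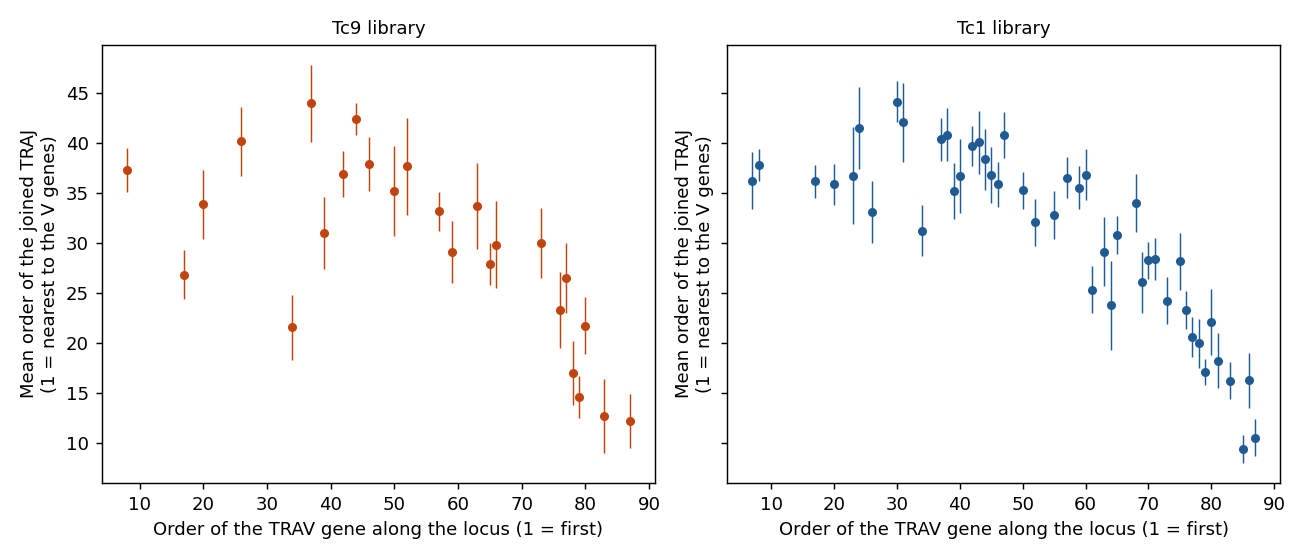
Mean order of the joined TRAJ gene (1 is nearest to the V genes) against the order of the TRAV gene along the locus for TRAV genes with at least 10 clonotypes in the CD4 and CD8 gates, in Tc9 (left) and Tc1 (right), with standard errors over clonotypes. The mean TRAJ order is lowest for the last TRAV genes in both libraries.

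Alpha chains found in both files were more frequent than beta chains. They numbered 19 of 2605 TRA clonotypes, against 2 of 3243 TRB clonotypes, with a median CDR3 of 39 bases against 42 bases for the other TRA clonotypes. Among them were 2 chains of TRAV11 (chr14:53519303-53519859) and TRAJ18, the pair that marks invariant natural killer T cells, which recognise lipids on CD1d. They are shown because they differ only at the first of their middle bases, and they gave the same amino acid CDR3.
TRAV11-TRAJ18, 2 barcodes in Tc9 and 10 in Tc1: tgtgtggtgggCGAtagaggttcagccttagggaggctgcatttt
TRAV11-TRAJ18, 2 barcodes in Tc9 and 4 in Tc1: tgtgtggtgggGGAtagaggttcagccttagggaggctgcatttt
In all, TRAV11-TRAJ18 chains were on 4 barcodes in Tc9 and 24 in Tc1. Of these, 3 in Tc9 and 9 in Tc1 had a UMI of Zbtb16, the transcription factor of these cells, against 0.564% of the other receptor barcodes in Tc9 and 1.47% in Tc1. Among the 21 in Tc1 with a TRB, 10 had TRBV12-2+TRBV13-2, 3 TRBV13-3, 3 TRBV29, 3 TRBV1, 2 TRBV13-1 and 1 TRBV19, counts that add to more than 21 because a barcode can carry more than 1 TRB. In Tc9, 2 had TRBV29, 1 TRBV13-3 and 1 the joined name. TRBV13, TRBV29 and TRBV1 are the beta genes known for these cells in the mouse. TRAV1 with TRAJ33, the chain of mucosal-associated invariant T cells, was found on 0 barcodes in both libraries, where 3 barcodes would have been 0.0805% of the receptor barcodes in Tc9 and 0.0663% in Tc1.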

How the data were processed

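RNA and receptor libraries were made by 10x 5′ capture from CD4 T cells sorted from tumours, with 1 pool of 3 mice per group. The deposited counts are UMIs per gene in each barcode. Cell Ranger 7.0.0 and mm10 (GRCm38) are named in the submitters' processing notes. The deposited contig files give a V gene, J gene, CDR3 and UMI count per contig. Every deposited contig was marked productive, so productive and non-productive rearrangements were not compared.

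Barcodes were kept from 500 genes upward and with up to 10% of UMIs from mitochondrial genes. Barcodes with either TRB found in both files were left out of all usage values, but were kept in the check of TRBV genes against RNA. The rule for naive-like cells used Ccr7, Lef1 and a gene that is not reported here. Usage was the share of clonotypes (V gene, nucleotide CDR3, J gene) in a gate, for V genes or TRAV families with at least 10 clonotypes over both sets. A clonotype found in both sets of a comparison counts in each. No doublet caller was run, and barcodes with several chains of one kind were kept. The total was 6639 contigs in Tc9 and 8344 in Tc1, with 18 to 2485 receptor barcodes per set with cells, and the number of clonotypes limits precision. Sequences were read from the contig files and positions from RefSeq, which placed 87 of 87 TRAV and 21 of 22 TRBV names.

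The named genes were the TRBV genes with at least 1% of CD4 clonotypes in a library, the 10 most used TRAV families and their most used gene, the 5 largest and 5 smallest differences per comparison, and TRBV14, TRAV11, TRAV1, TRBV13-2 and TRBV29. Other genes named were chosen after their values were seen. For CD8 over CD4 the rule was applied to Tc1 alone, because Tc9 had 9 CD8 clonotypes. The members, lists and rules were chosen with earlier results of these data known. The Tc1-only comparison, the alternative that counts the joined name as TRBV13-2 and the one that leaves out alpha chains found in both files were added after seeing the data. The comparison step was tested on simulated data. Python 3.11.15, numpy 2.4.6, pandas 2.3.3, scipy 1.17.1 and matplotlib 3.10.9 were used.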

Additional observations from a re-analysis of the deposited data

Results flagged for a closer look

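As named in the contigs, a pair of V beta genes went opposite ways in the libraries between naive-like and other CD4 cells. TRBV13-3 differed by -3.58 percentage points in Tc9, naive-like minus other, and by 4.14 in Tc1, so the difference in Tc9 minus that in Tc1 was -7.72 points. TRBV13-2 differed by -1.51 points in Tc9 and 1.90 in Tc1, which makes -3.41 points. They were flagged because the direction was opposite in the 2 libraries. With 1 pool per group, neither difference was tested. The naive-like set of Tc9 held 2 clonotypes of TRBV13-3 and 1 of TRBV13-2, among 86. With TRBV13-2 and the joined TRBV12-2+TRBV13-2 pooled, the direction was the same in both, with 8.14% in naive-like and 13.9% in other cells of Tc9 and 7.72% in naive-like and 10.4% in other cells of Tc1. With all 3 naive genes needed, TRBV13-3 differed by -0.868 points in Tc1, the direction it has in Tc9.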

How the results depend on the processing

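No paired analysis was possible because each group is 1 pool with no replicate number, and for the same reason no library could be left out. The alternatives gave 329 values of 28 single genes or families. Of these, 314 kept the direction of the reported difference and lay within its interval of counting error, 8 moved outside it and 7 reversed. Many of these intervals are wide, so a value inside one can still differ clearly from the value reported. Genes or families below the minimum under an alternative gave no value there. The number of V genes past 1.5-fold changed under many alternatives, as many shares rest on few clonotypes.

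The 2 TRBV names that differed between CD4 cells of Tc9 and Tc1 became 7 with only barcodes of 1 TRA and 1 TRB, 6 with stricter gates, 10 when barcodes were counted, 5 without barcodes with macrophage or red cell RNA and 4 without naive-like cells. The 1 TRAV family became 3 with 1 TRA and 1 TRB, 2 with the amino acid CDR3, 5 with contigs of at least 3 UMIs, 2 with stricter gates, 3 after thinning, 5 per barcode and 2 without macrophage or red cell RNA.

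For CD8 over CD4 in both libraries, the 0 TRBV names became 1 with stricter gates, 2 after thinning, 1 with the shared TRB kept, 1 per barcode, 1 without macrophage or red cell RNA and 1 without naive-like cells. The 1 TRAV family became 2 with 1 TRA and 1 TRB, 2 with stricter gates and 3 per barcode. These counts rest on the few CD8 clonotypes of Tc9 and cannot show whether the libraries agree. In Tc1 alone the 9 TRBV names became 16 and the 6 TRAV families 14 per barcode.

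For Foxp3 in both libraries, the 1 TRBV name became 2 with 1 TRA and 1 TRB, 0 with a minimum of 20 clonotypes and 0 without macrophage or red cell RNA. The 1 TRAV family became 0 with 1 TRA and 1 TRB, contigs of at least 3 UMIs, thinning, a minimum of 20, no macrophage or red cell RNA or no naive-like cells, and 2 per barcode or without alpha chains found in both files. For naive-like over other CD4 cells in Tc1, the 7 TRBV names became 4 with stricter gates, and the 3 TRAV families 7 per barcode, 8 without macrophage or red cell RNA and 6 with all 3 naive genes.

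The reversed differences were TRBV16 in CD4 cells of Tc9 minus Tc1 (0.253 points per barcode), TRBV12-2 in CD8 minus CD4 cells of Tc1 (-0.349 per barcode) and 5 values of naive-like minus other cells. Those were the joined name (3.02 after thinning), TRBV13-3 (-0.868 with all 3 naive genes), TRBV13-2 (-2.28 with the joined name counted as TRBV13-2) and TRAV13 (0.104 with stricter gates, 2.52 after thinning). The cause was not tested.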
